A study of Mus musculus with 12 samples.

Results

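The pieces of mammary gland profiled in this series differed widely in how much skeletal muscle RNA they held. The classes were chosen by a measured value: the 12 arrays were split by the log2 intensity of Acta1, the actin of skeletal muscle thin filaments, read from the probe set of that gene with the highest mean over all arrays. The 7 arrays with a value of 11 or more are called muscle-rich here and the 5 arrays below 11 muscle-poor, out of 12 arrays in all. Because a measured value made the split, every difference between the classes is given as a description, without a p-value of its own. The limma thresholds used below on this split serve only as a rule to sort genes. Calls and counts made with them are no test of the split.

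Each array holds biotin-labelled total RNA from the mammary gland of a separate C57BL/6 mouse. All mice were virgin females from which the ovaries had been removed, so the placebo controls lacked ovarian hormones as well. There were 4 groups of 3 mice: Ccnd1+/+ on placebo, Ccnd1+/+ on estradiol, Ccnd1-/- on placebo and Ccnd1-/- on estradiol, the hormone coming from a pellet of 0.72 mg made for release over 60 days, for 7 days. Ccnd1 encodes cyclin D1, and the labels describe the mutant only by its genotype, with no cell type named as the site of the loss. The labels name neither the position of the gland nor how much surrounding tissue came with it. As a check of the genotype, Ccnd1 itself lay between 7.24 and 7.68 in the 6 Ccnd1-/- arrays and between 8.50 and 10.82 in the 6 Ccnd1+/+ arrays, without overlap.

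A skeletal muscle fiber is built from repeating sarcomeres. Myosin thick filaments pull on actin thin filaments, the Z-disc anchors the thin filaments, and calcium released from the sarcoplasmic reticulum starts each contraction by binding to troponin. Fast and slow fibers carry different forms of myosin, troponin and the calcium pump, and fast fibers lean on glycolysis and the creatine kinase system. Mouse mammary fat pads lie under the skin, next to the thin cutaneous muscle and the muscles of the body wall. The gland has contractile myoepithelial cells of its own, which use smooth muscle proteins.

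Acta1 spread over a wide range, from 5.82 to 14.01 log2 units. It was at 13.16, 14.01 and 10.20 in Ccnd1+/+ placebo arrays 1 to 3 and at 12.87, 11.44 and 12.27 in the Ccnd1+/+ estradiol arrays. In the Ccnd1-/- glands it was at 7.39, 12.81 and 5.82 on placebo and at 13.64, 7.61 and 9.35 on estradiol. Thus 5 of 6 Ccnd1+/+ arrays and 2 of 6 Ccnd1-/- arrays were muscle-rich. The array just inside the threshold was Ccnd1+/+ estradiol array 2 (11.44), and the array just outside it was Ccnd1+/+ placebo array 3 (10.20). The class comparison rests on the 3 groups that held both kinds of array, since all 3 Ccnd1+/+ estradiol arrays were muscle-rich and add nothing to a difference taken within groups. In such whole-tissue RNA, fewer muscle fibers and less muscle RNA per fiber cannot be told apart.

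Myh4, the myosin heavy chain of the fastest fibers, is described beside Acta1 as a second marker of the split. Like the classes, it was chosen with earlier results of these data known, so it is no independent check of the label. It was at 12.36, 13.87 and 7.87 in the Ccnd1+/+ placebo arrays and at 10.74, 9.73 and 10.50 in the Ccnd1+/+ estradiol arrays. In the Ccnd1-/- glands it was at 5.33, 11.65 and 4.41 on placebo and at 12.35, 6.07 and 8.83 on estradiol. Every muscle-rich array lay above every muscle-poor one, and the fitted difference, muscle-rich minus muscle-poor with the 4 groups as covariates, was 5.64 ± 0.63 log2 units (SE, n = 7 and 5), or 49.95-fold. The same fit gave 4.92 ± 0.62 for Acta1 itself, or 30.2-fold. A second, dimmer probe set of Myh4 differed by 1.66, and with the mean of all probe sets of a gene Myh4 differed by 3.65 and was no longer called. Acta1 was lowest in Ccnd1-/- placebo array 3, at 5.82, near the median of all probe sets there (5.78). In that array Tnnt3 (3.84), Ckmt2 (3.65), Smpx (3.35) and Myot (3.16), muscle genes too, lay under the lower quartile of 4.22.

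**Figure D1:**
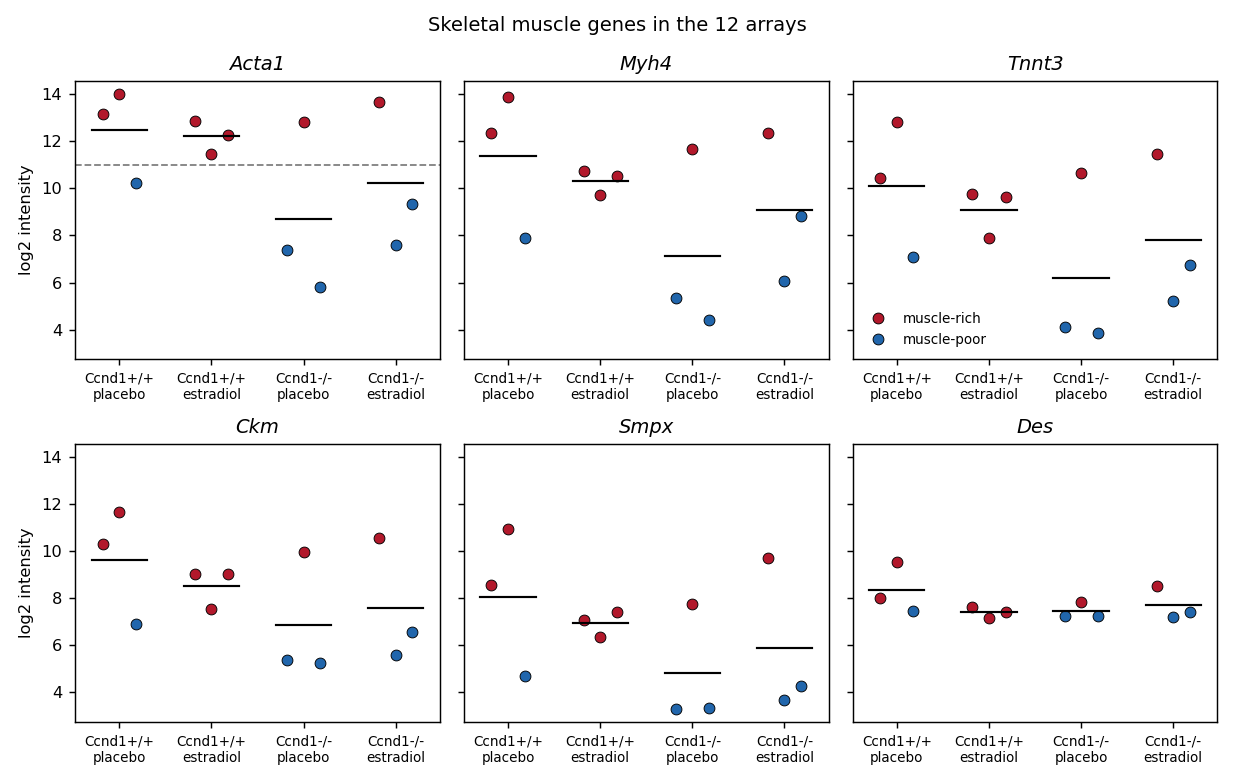
Log2 intensity (vertical axis) of 6 skeletal muscle genes in each of the 12 arrays, by genotype and treatment; red points are muscle-rich and blue points muscle-poor arrays, black bars are group means (n = 3), and the dashed line marks the Acta1 threshold of 11. The 7 red points lie above the 5 blue points for Acta1, Myh4, Tnnt3, Ckm and Smpx, whereas the classes overlap for Des (7.17 to 9.53 against 7.19 to 7.44).

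Across 18193 genes, limma with Benjamini-Hochberg adjustment over all genes called 19 at an adjusted p under 0.05, which is 0.104% of the genes tested. All 19 were higher in the muscle-rich arrays and none was lower, and 405 genes in either direction had an unadjusted p under 0.05. Of the 19, 18 belonged to the lists of skeletal muscle genes, which held 143 measured members of 152 listed. Acta1, whose value made the classes, is counted among the 19 and the 18. The remaining one was Apobec2, a muscle-enriched member of a family of nucleic acid deaminases. It ranged from 7.59 over a median of 8.35 to 11.45 in the muscle-rich arrays and was at 5.69, 4.85, 5.02, 5.13 and 5.69 in the muscle-poor ones, a difference of 4.12 ± 0.46, although a second, dimmer probe set of it differed by 0.26.

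Whether the classes overlapped was counted as well. In 60 genes (0.33% of 18193) every muscle-rich array lay above every muscle-poor array, and 36 of them were on the muscle lists. Acta1 is 1 of the 60 and of the 36 by construction. The opposite order was seen for 12 genes (0.066%), none of them on the muscle lists. The difference was above 0 in each of the 3 groups that hold both classes for 90 of the 143 muscle genes and for 1230 of all genes (6.76%). The median difference was 1.03 log2 units over the muscle genes and 0.0 over all genes.

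The count of called genes depended on the threshold and on single arrays. It was 0 with an Acta1 threshold of 10 or of 12 and 0 with the replicate number as a block (3155, 625 and 495 genes at an unadjusted limma p under 0.05). It was also 0 without any of Ccnd1-/- placebo arrays 1, 2 and 3 and Ccnd1-/- estradiol arrays 1 and 2 (319 to 803 genes at an unadjusted limma p under 0.05) and 1 without Ccnd1-/- estradiol array 3. Leaving out Ccnd1+/+ estradiol array 1 or 3 gave 12 genes. Leaving out Ccnd1+/+ placebo arrays 1, 2 and 3 gave 73, 51 and 1459. All 19 genes kept a positive difference in each of these fits, and when an array was left out it lay between 2.39 and 6.09 log2 units. Since the 19 were picked as higher in these same arrays, the kept sign is no independent support.

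The thin filament, on which calcium acts, had the most called genes of the structural lists. Tnnt3, Tnni2 and Tnnc2 encode the 3 subunits of fast troponin, the calcium switch of the thin filament. Tnnt3 ranged from 7.89 over a median of 10.44 to 12.79 in the muscle-rich arrays. In the muscle-poor arrays it was at 7.10 (Ccnd1+/+ placebo 3), 4.11 and 3.84 (Ccnd1-/- placebo 1 and 3) and 5.22 and 6.75 (Ccnd1-/- estradiol 2 and 3). The classes did not overlap, and the difference was 5.56 ± 0.65. Tnnc2, the calcium-binding subunit, differed by 5.23 ± 0.60 and ranged from 8.96 to 12.54 in the muscle-rich and from 4.74 to 8.09 in the muscle-poor arrays. Tnni2, the inhibitory subunit, differed by 4.26 ± 0.46, and its other probe sets differed by 3.76 and 0.56.

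Further thin filament genes were tropomyosin and the length regulators. Tpm1, which covers the myosin binding sites of actin at rest, differed by 3.78 ± 0.49, from 6.80 to 7.95 in the muscle-poor to 8.67 to 12.69 in the muscle-rich arrays. Its 3 other probe sets differed by 0.03, 1.63 and 0.13. The first of these was nearly as bright on average as the probe set used (9.0 against 9.09). The difference of 3.78 thus holds for the probe set used, and the part of splicing in this disagreement was not tested. Tmod4, a tropomodulin that caps the filament end, differed by 3.65 ± 0.49. In all, 6 of the 17 measured thin filament genes were called (0.104% of all genes) and 14 were above 0 in each of the 3 groups, both counts including Acta1, for which the split itself fixed this, and the median over the list was 2.86. Neb, the giant ruler protein nebulin, differed by 3.57 without being called, ranging from 5.35 to 10.75 in the muscle-rich and from 3.93 to 5.40 in the muscle-poor arrays. That small overlap came from Ccnd1+/+ estradiol array 2 (5.35) and Ccnd1-/- estradiol array 3 (5.40).

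In the thick filament list 3 of 20 measured genes were called (0.104% of all genes were), Myh4, Mybpc2 and Mylpf. Of these, Myh4 is the second marker of the split. Mybpc2, the myosin-binding protein C of fast fibers, differed by 5.11 ± 0.69, with 4.60 to 6.76 in the muscle-poor and 7.71 to 12.83 in the muscle-rich arrays. Mylpf, the regulatory light chain of fast myosin, differed by 4.11 ± 0.44, with 5.73 to 7.99 against 8.25 to 11.41. Ttn, the giant spring protein titin, differed by 4.32 and was not called. The list's median difference was 1.86, and all 20 differences were above 0. The embryonic and neonatal myosins Myh3 and Myh8 had differences of 0.11 and 0.32. Myosin heavy chain genes resemble each other in sequence, and how far their probe sets take up each other's RNA was not tested.

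Z-disc and cytoskeletal genes included Actn3, the alpha-actinin of fast fibers, which differed by 5.21 ± 0.71 (4.77 to 7.48 in the muscle-poor, 7.5 to 13.19 in the muscle-rich arrays). Myot, the Z-disc protein myotilin, differed by 4.95 ± 0.54, with 3.09 to 4.74 against 6.28 to 10.74. Csrp3, the muscle LIM protein, differed by 2.79 ± 0.39, with 5.37 to 5.93 against 6.92 to 9.31. These 3 of 24 measured genes were called (0.104% of all genes were), and the median of the list was 1.28. Des, desmin, the intermediate filament of every muscle type, was a weak marker of the split. It was at 8.0, 9.53 and 7.44 in Ccnd1+/+ placebo, 7.60, 7.17 and 7.41 in Ccnd1+/+ estradiol, 7.23, 7.84 and 7.22 in Ccnd1-/- placebo and 8.53, 7.19 and 7.40 in Ccnd1-/- estradiol arrays. The classes overlapped, and its difference of 1.06 ± 0.29 was not called.

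Of 28 measured genes of calcium handling and excitation, 2 were called (0.104% of all genes were). Atp2a1, the calcium pump of the fast sarcoplasmic reticulum, ranged from 7.80 over 10.08 to 12.72 in the muscle-rich arrays and from 4.70 over 5.12 to 6.91 in the muscle-poor ones, a difference of 4.90 ± 0.68. Pvalb, the calcium buffer parvalbumin, differed by 3.46 ± 0.40, and its classes overlapped slightly (6.33 to 10.39 against 5.28 to 6.45). Casq1, the calcium store protein of fast fibers, differed by 4.29, Trdn (triadin) by 2.78, Cacna1s, the voltage sensor, by 2.54 and Ryr1, the release channel, by 2.21, none of them called. Among the members with small differences, named after their values were seen, were genes of the nerve-muscle synapse. The acetylcholine receptor subunits Chrna1, Chrnb1, Chrne and Chrng and their organizers Musk and Rapsn had differences of 0.28, 0.02, 0.14, 0.19, 0.08 and 0.06. Over the whole list the median was 0.37.

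Of 27 measured genes of muscle energy metabolism, 3 were called (0.104% of all genes were). Ckm, cytosolic muscle creatine kinase, was at 10.28, 11.67 and 6.88 in Ccnd1+/+ placebo, 9.0, 7.52 and 9.04 in Ccnd1+/+ estradiol, 5.38, 9.94 and 5.24 in Ccnd1-/- placebo and 10.54, 5.58 and 6.58 in Ccnd1-/- estradiol arrays. No muscle-poor array reached the lowest muscle-rich one, and the difference was 4.40 ± 0.42. A second probe set of Ckm, dimmer on average, differed by 0.86. Ckmt2, its mitochondrial partner, differed by 5.49 ± 0.55 (3.61 to 5.38 against 6.75 to 11.81), and Pgam2, the muscle form of a glycolytic mutase, by 4.06 ± 0.41 (5.31 to 6.29 against 7.16 to 11.40). Enzymes that many tissues share had small differences, among them Aldoa (0.15), Ldha (0.24) and the adipocyte-rich Gpd1 (-0.07). Mb, the oxygen store myoglobin, differed by 2.99 with overlapping classes, 8.17 to 11.95 in the muscle-rich and 5.8 to 8.74 in the muscle-poor arrays.

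Of the muscle lists, that of fast fibers had the highest median difference. All 14 fast-fiber genes had a positive difference in each of the 3 groups (90 of the 143 muscle genes and 6.76% of all genes did). Of them 9 were called (0.104% of all genes were), and that median was 4.74. Within the groups it was 3.85 in Ccnd1+/+ placebo, 5.19 in Ccnd1-/- placebo and 4.44 in Ccnd1-/- estradiol arrays. Besides those named above, Myh1 and Myh2, heavy chains of other fast fibers, differed by 5.22 and 4.59 and were not called. Myh1 was higher in Ccnd1-/- estradiol array 3 (9.78), a muscle-poor array, than in Ccnd1+/+ estradiol array 3 (9.40), a muscle-rich one.

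Slow-fiber genes followed Acta1 less, and the arrays that held them were few. Of 11 measured genes 1 was called, Csrp3 (0.104% of all genes were), and the list's median difference was 0.61. In each of the 3 groups 4 of 11 were above 0 (6.76% of all genes were). Myh7, the slow myosin heavy chain, was at 7.53 in Ccnd1-/- placebo array 2 and between 3.70 and 4.45 in the other 11 arrays. Myl2, the slow regulatory light chain, was at 7.23 in that array and between 3.22 and 4.12 elsewhere. Tnnt1, the slow troponin T, was at 7.88 there, at 6.10 in Ccnd1+/+ estradiol array 1 and between 4.78 and 5.24 in the other 10. Of the 11 slow genes 8 were highest in Ccnd1-/- placebo array 2, whereas 13 of the 14 fast genes were highest in Ccnd1+/+ placebo array 2. Among all 143 measured muscle genes, 18 were highest in the former array and 86 in the latter. The muscle-rich arrays thus did not hold one uniform mixture: the array with the most Acta1 had Myh7 at 4.42.

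**Figure D2:**
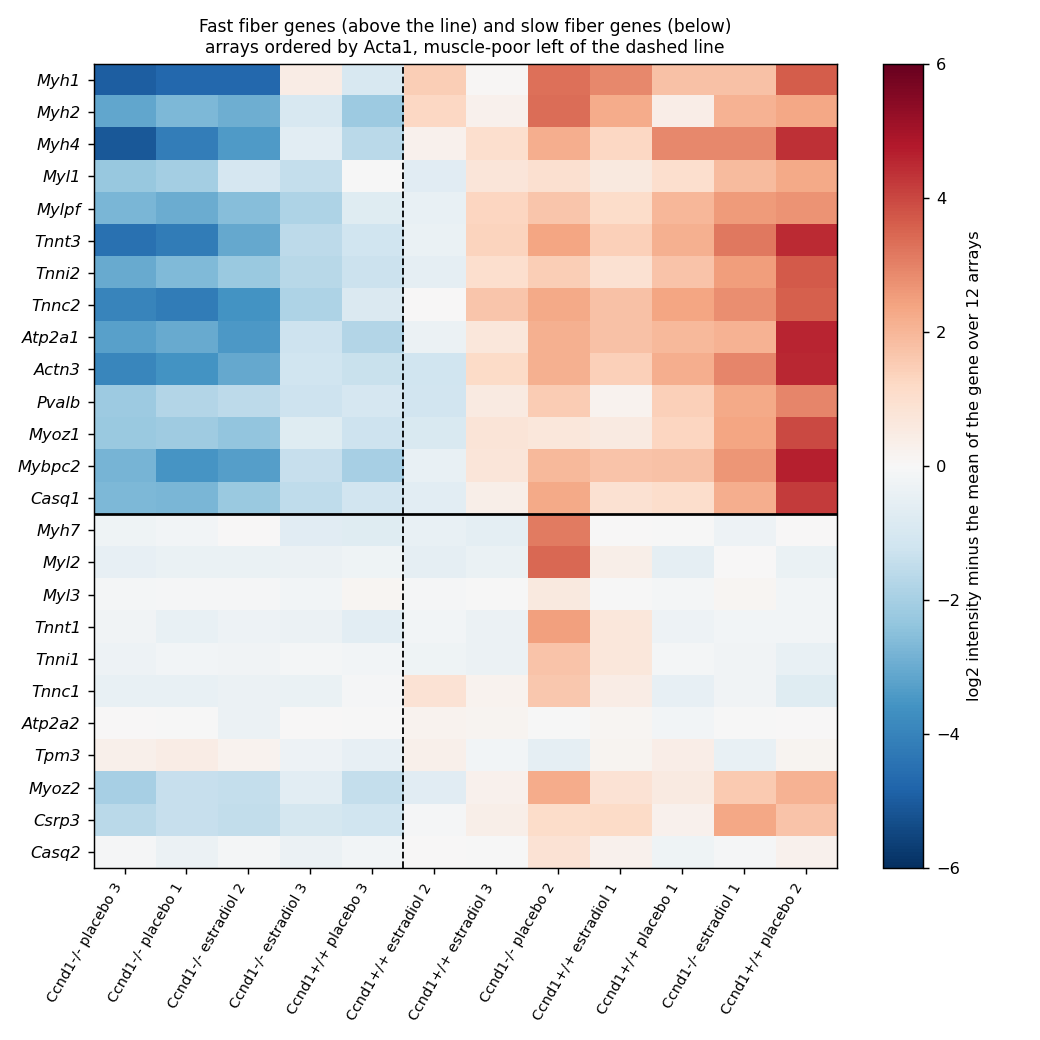
Log2 intensity of 14 fast-fiber genes (above the solid line) and 11 slow-fiber genes (below it), as the difference from each gene's mean over the 12 arrays (color scale, red above and blue below the mean); columns are arrays ordered by Acta1, with the 5 muscle-poor arrays left of the dashed line. The fast genes grade from blue to red along the order, while Myh7, Myl2 and Tnnt1 are raised mainly in Ccnd1-/- placebo array 2 (7.53, 7.23 and 7.88).

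Regulators of muscle identity showed less than the structural genes. Smpx, a small protein of striated muscle that had been placed on this list, differed by 5.05 ± 0.48 (3.29 to 4.71 in the muscle-poor, 6.35 to 10.91 in the muscle-rich arrays). It was the only 1 of 15 measured members called (0.104% of all genes were). Of the myogenic transcription factors, Myf6, which persists in mature fibers, differed by 0.90, Myog by 0.51, Myod1 by 0.41 and Myf5 by -0.01. Pax7, the marker of muscle stem cells, differed by 0.06 and lay between 3.42 and 4.02 in all 12 arrays. Both Pax7 and Myf5 lay below the lower quartile of every array, so their small differences were measured on dim probe sets. The list's median was 0.20, with 10 differences above 0 and 5 below. In each of the 3 groups 7 members were above 0 (6.76% of all genes were), Vgll2 and Rbm24 among them. Vgll2 was at 5.81, 7.36 and 5.09 in Ccnd1+/+ placebo, 5.23, 7.52 and 5.29 in Ccnd1-/- placebo and 6.17, 5.42 and 5.19 in Ccnd1-/- estradiol arrays. In the list of atrophy and growth genes none of 12 was called (405 of all genes had an unadjusted limma p under 0.05). Trim63, a ubiquitin ligase of the sarcomere, nevertheless differed by 4.26 with classes that did not overlap (4.52 to 4.95 against 5.78 to 11.32), and Asb5 lay under the lower quartile of the array in all 5 muscle-poor arrays, at 3.33 to 3.99, against 3.90 to 8.83.

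The genes whose values, centred on their group means, correlated best with Acta1 over the 12 arrays were Tnnc2 (r = 0.98), Myh4 (0.98), Tnnt3 (0.98), Myoz2 (0.97) and Adm2 (0.97). These are descriptions over arrays that share the tissue and the normalization. Myoz2, a Z-disc protein, differed by 3.11 between the classes, and Adm2, a peptide hormone of the calcitonin family, by 0.37, from 5.76 to 5.91 in the muscle-poor to 5.72 to 6.32 in the muscle-rich arrays.

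Promoters are shown for 4 called genes, the 2 that mark the split and 2 of its metabolic and contractile followers, because the members moved together and muscle promoters are known for a few shared short motifs. RefSeq promoter windows on build GRCm38.p6 were matched by symbol for 15 of the 19 called genes, with 17 windows. Each sequence gives the 250 bases before the annotated start, 5′ to 3′ on the strand of the gene. Capitals mark every match, on either strand, to CAGCTG (an E-box of the kind that binds myogenic factors), to TATAAA, to the CArG box of serum response factor, and to the site of the muscle factor MEF2 in these windows.
Acta1, chr8:123894776-123895025, minus strand: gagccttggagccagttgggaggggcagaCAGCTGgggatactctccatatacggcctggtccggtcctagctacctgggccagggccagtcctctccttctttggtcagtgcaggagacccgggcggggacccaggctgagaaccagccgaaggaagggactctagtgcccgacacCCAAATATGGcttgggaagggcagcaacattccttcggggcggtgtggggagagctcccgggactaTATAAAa
Myh4, chr11:67237562-67237811, plus strand: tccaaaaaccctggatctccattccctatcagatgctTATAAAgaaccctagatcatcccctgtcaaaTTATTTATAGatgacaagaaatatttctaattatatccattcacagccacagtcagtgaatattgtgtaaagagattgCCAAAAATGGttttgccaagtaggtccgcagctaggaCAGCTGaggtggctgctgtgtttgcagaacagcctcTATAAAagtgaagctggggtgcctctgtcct
Mylpf, chr7:127211358-127211607, plus strand: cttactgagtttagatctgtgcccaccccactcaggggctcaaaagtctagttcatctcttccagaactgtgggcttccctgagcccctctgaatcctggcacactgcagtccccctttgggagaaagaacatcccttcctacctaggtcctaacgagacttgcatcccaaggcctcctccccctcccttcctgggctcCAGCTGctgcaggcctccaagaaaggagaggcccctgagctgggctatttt
Pgam2, chr11:5803797-5804046, minus strand: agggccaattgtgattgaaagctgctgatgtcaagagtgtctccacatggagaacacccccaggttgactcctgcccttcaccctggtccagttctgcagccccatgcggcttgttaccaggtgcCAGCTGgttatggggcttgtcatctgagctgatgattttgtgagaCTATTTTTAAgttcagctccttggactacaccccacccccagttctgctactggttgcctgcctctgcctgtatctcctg

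The 4 windows were picked among those that hold a match. CAGCTG was found in 8 of the 17 windows of called genes (47.1%), in 32.9% of the 140 windows of 108 muscle genes and in 13.0% of all 32851 windows. The CArG box was found in 11.8%, 8.57% and 1.47% of the same windows, the MEF2 site in 17.6%, 11.4% and 2.92%, and TATAAA in 17.6%, 17.1% and 12.4%. A match is a description of the letters. In the Myh4 window the MEF2 match overlaps the middle one of the 3 TATAAA matches.

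Lists of other cell types had small median differences in the fit, with exceptions, though several differed in sign between the groups. The median was -0.01 for 15 genes of smooth muscle and myoepithelium, -0.03 for 16 of white adipocytes, -0.24 for 18 of luminal epithelium, 0.01 for 19 of skin keratinocytes, 0.07 for 10 of tendon and -0.04 for 7 of heart. Within Ccnd1+/+ placebo, Ccnd1-/- placebo and Ccnd1-/- estradiol arrays the median was -0.53, -0.88 and 0.36 for luminal epithelium. In the same order it was -0.56, 0.24 and 0.11 for white adipocytes and -0.53, 0.26 and 0.34 for smooth muscle and myoepithelium. No member of the lists named so far in this paragraph was called (0.104% of all genes were). The heart myosin Myh6 lay between 3.10 and 3.74 in the 12 arrays, below the lower quartile of each, and 5 of 19 keratinocyte genes, among them Krt2, also lay below it on every array. Brown adipocyte genes had a median of 0.62 with all 12 differences above 0, but the median was -0.58 in Ccnd1+/+ placebo arrays against 0.70 and 2.14 in the Ccnd1-/- placebo and estradiol arrays. Their score, a mean of centred log2 values, ranged from -1.18 to 1.64 in the muscle-rich and from -1.03 to 0.88 in the muscle-poor arrays. With that score as a further covariate, an alternative chosen after seeing the data, none of the 19 genes was called (419 of all genes at an unadjusted limma p under 0.05) and their differences lay between 2.63 and 5.70.

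**Figure D3:**
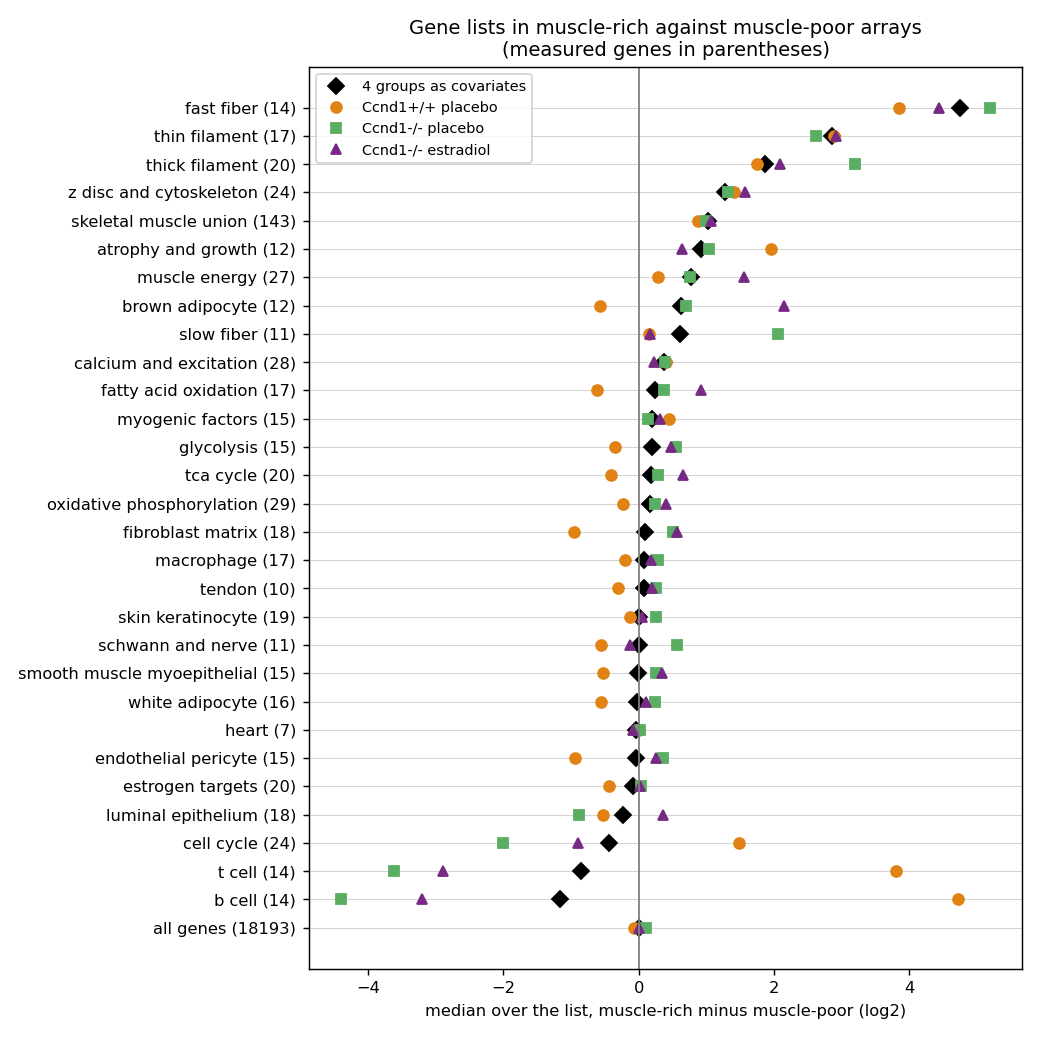
Median over each gene list of the difference, muscle-rich minus muscle-poor (horizontal axis, log2 units), with the number of measured genes in parentheses; black diamonds come from the fit with the 4 groups as covariates, and colored symbols from the 3 groups that hold both classes. Fast-fiber genes lie farthest right (4.74), and T cell, B cell and cell cycle genes lie on opposite sides in the Ccnd1+/+ placebo and the Ccnd1-/- arrays.

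Lymphocyte genes differed between the classes in opposite directions in Ccnd1+/+ placebo glands and in the 2 Ccnd1-/- groups. Each of these differences rests on a single array in 1 of the classes. It was the muscle-poor array 3 in Ccnd1+/+ placebo, and the muscle-rich arrays 2 on placebo and 1 on estradiol in Ccnd1-/- glands. The median difference of 14 T cell genes was 3.80 in Ccnd1+/+ placebo and -3.61 and -2.89 in Ccnd1-/- placebo and estradiol arrays, and that of 14 B cell genes 4.72, -4.40 and -3.21. Ms4a1, the B cell surface protein CD20, was at 11.77, 11.43 and 5.12 in Ccnd1+/+ placebo, 3.61, 10.06 and 4.03 in Ccnd1+/+ estradiol, 11.63, 4.88 and 11.36 in Ccnd1-/- placebo and 3.74, 10.90 and 9.78 in Ccnd1-/- estradiol arrays. Cd3d, a chain of the T cell receptor complex, was high and low in the same arrays. In the Ccnd1-/- glands the muscle-rich array of each group had the lowest Ms4a1, whereas among Ccnd1+/+ placebo glands the muscle-poor array did. The score of the T and B cell lists, made in the same way, ranged from -2.30 to 2.34 in the muscle-rich and from -2.02 to 2.01 in the muscle-poor arrays. With this score as a further covariate 23 genes were called, 22 higher and 1 lower, all 19 among them.

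**Figure D4:**
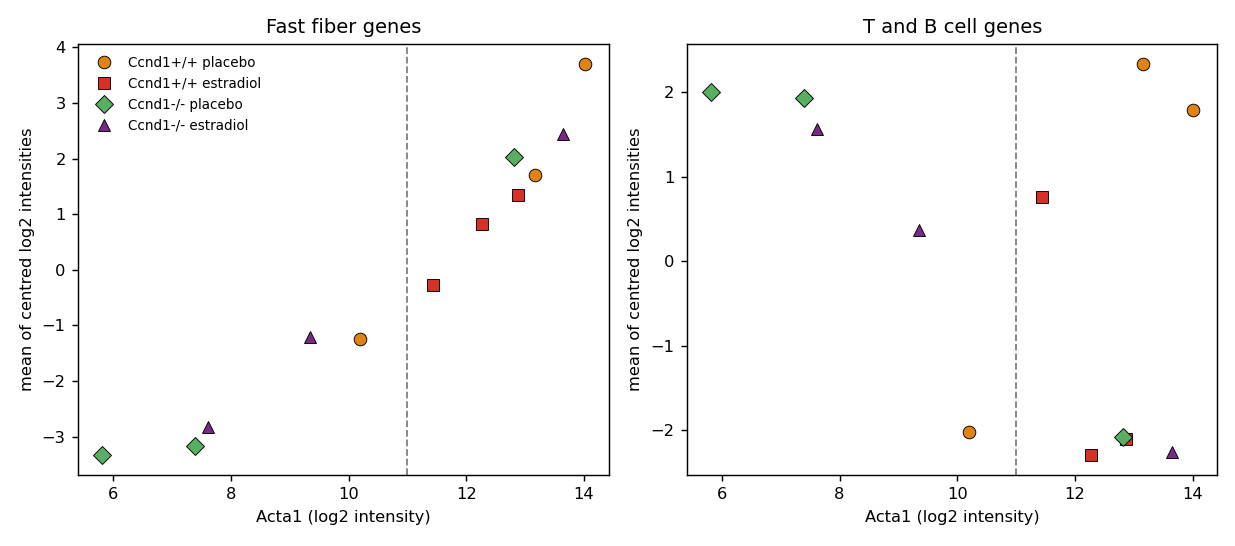
Mean of centred log2 intensities (vertical axes) of the fast-fiber genes (left) and of the T and B cell genes (right) against the Acta1 log2 intensity (horizontal axis) in the 12 arrays, by group; the dashed line is the threshold of 11. The fast-fiber mean climbs from -3.33 to 3.71 along Acta1, while the lymphocyte mean is mixed among the arrays with the most Acta1, 2.34 in Ccnd1+/+ placebo array 1 and -2.26 in Ccnd1-/- estradiol array 1.

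Cell cycle genes followed the lymphocyte genes, with medians of 1.48, -2.01 and -0.90 in the Ccnd1+/+ placebo, Ccnd1-/- placebo and Ccnd1-/- estradiol groups. When only the 6 Ccnd1-/- arrays were compared, which was done after seeing the data, 1141 genes were called (6.27%), 359 higher (1.97% of all genes) and 782 lower (4.3%). Among the higher ones were 13 of 14 fast-fiber and 13 of 17 thin filament genes, of which Acta1 is a member. Among the lower ones were 13 of 14 T cell, 12 of 14 B cell and 12 of 24 cell cycle genes. The part that lymphocyte content has in the lower calls was not tested. As a sign of RNA quality, the 3′ minus 5′ difference of the Actb control probe sets ranged from 2.20 to 2.94 in the muscle-rich and from 2.75 to 3.02 in the muscle-poor arrays, and that of Gapdh from 2.41 to 3.26 and from 2.10 to 3.56. The part of RNA quality in the split was not tested.

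The study's own comparisons ask what estradiol does in each genotype, what loss of Ccnd1 does under each treatment, and whether the 2 interact. Acta1 varied widely within these groups. It was 12.45 ± 2.00 (SD, n = 3) in Ccnd1+/+ placebo, 12.19 ± 0.72 in Ccnd1+/+ estradiol, 8.67 ± 3.67 in Ccnd1-/- placebo and 10.20 ± 3.10 in Ccnd1-/- estradiol arrays. In the limma fit of the 4 group means its difference was -0.26 for estradiol in Ccnd1+/+ (adjusted p = 0.977) and 1.52 for estradiol in Ccnd1-/- glands (adjusted p = 0.866). Knockout minus wildtype was -3.78 on placebo (adjusted p = 1.0) and -1.99 on estradiol (adjusted p = 0.697), and the interaction was 1.79 (adjusted p = 0.983). The median difference of the 14 fast-fiber genes was -0.91, 0.94, -2.85, -1.25 and 1.75 in the same 5 comparisons, which share groups.

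None of the 143 muscle genes was called in any of the 5 comparisons, in which limma called 1.88%, 0.0989%, 0.0%, 1.12% and 0.011% of all genes. At an unadjusted p under 0.05 there were 4, 4, 3, 9 and 5 muscle genes, against 2450, 1513, 370, 2457 and 1170 of all genes. The muscle gene with the smallest p for estradiol in Ccnd1+/+ glands was Jph1, junctophilin, which anchors the calcium stores to the cell membrane (log2 difference -0.36 ± 0.098 SE, adjusted p = 0.109). Flnc, filamin C, followed with 0.72 ± 0.246 (adjusted p = 0.203); it was at 6.92 ± 0.19 (SD) on placebo and 7.65 ± 0.09 on estradiol. In Ccnd1-/- glands the smallest p was that of Foxo1, a transcription factor active in many tissues (-0.64 ± 0.169, adjusted p = 0.341). Gpd1, which adipocytes also express at high levels, had the smallest p for knockout minus wildtype on estradiol (0.92 ± 0.319, adjusted p = 0.24) and for the interaction (1.29 ± 0.451, adjusted p = 0.618). On placebo it was Mymk, the fusion protein myomaker (0.39 ± 0.161, adjusted p = 1.0).

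Adding the muscle-rich class as a term to the same fit reduced the number of genes called by limma. For estradiol in Ccnd1+/+ glands 169 were called in place of 342 (0.929% in place of 1.88% of all genes), and 166 were in both sets. At an unadjusted limma p under 0.05 there were 2373 genes in place of 2450. For estradiol in Ccnd1-/- glands 12 were called in place of 18 (0.066% in place of 0.0989%), all 12 shared. The unadjusted count was 1350 in place of 1513. For knockout minus wildtype on estradiol 11 were called in place of 204 (0.0605% in place of 1.12%), all 11 shared. Here the unadjusted count was 2016 in place of 2457. For knockout minus wildtype on placebo no gene was called by either fit (370 and 424 at an unadjusted p under 0.05). The 2 interaction calls, Padi4 and Anln, had an adjusted p of 0.0378 each, and of 0.11 and 0.141 with the term (0 calls, 1096 genes at an unadjusted p under 0.05).

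The term changed the sizes of the called differences little in the median. The median size of the 342 differences was 1.37 without and 1.35 with the term, that of the 204 was 1.23 and 1.26, and every called gene kept its sign. Pgr, the progesterone receptor, differed between Ccnd1-/- and Ccnd1+/+ glands on estradiol by -2.47 in both fits, with adjusted p of 0.0151 and 0.0812. Greb1, an estrogen-induced gene, differed by 5.83 and 5.77 for estradiol in Ccnd1+/+ glands, with adjusted p of 7.46e-06 and 5.73e-05. The term takes 1 residual degree of freedom, leaving 7 in place of 8. The classes were also uneven between the genotypes on estradiol, where all 3 Ccnd1+/+ arrays and 1 of 3 Ccnd1-/- arrays were muscle-rich. The part of this unevenness in the lost calls was not tested. With the Acta1 level in place of the class, 274 genes were called for estradiol in Ccnd1+/+ glands and 94 for knockout minus wildtype on estradiol.

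**Figure D5:**
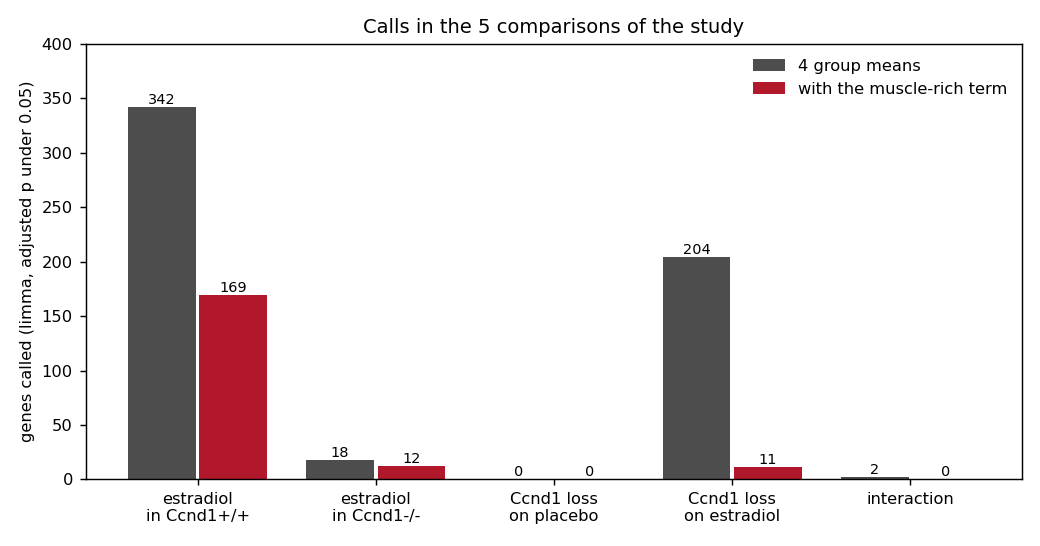
Number of genes called by limma at an adjusted p under 0.05 (vertical axis) in the 5 comparisons of the study, from the fit of the 4 group means (grey) and from the same fit with the muscle-rich class as a term (red). The counts go from 342 to 169, 18 to 12, 0 to 0, 204 to 11 and 2 to 0.

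These counts also depended on single arrays. For estradiol in Ccnd1+/+ glands the number was 107, 100 and 1146 when Ccnd1+/+ placebo array 1, 2 or 3 was omitted and 153 when Ccnd1+/+ estradiol array 3 was. For estradiol in Ccnd1-/- glands it was 11 with Ccnd1+/+ placebo array 2 or Ccnd1-/- estradiol array 1 omitted, and 10 with Ccnd1+/+ estradiol array 1 or Ccnd1-/- placebo array 1 or 2 omitted. For knockout minus wildtype on estradiol it was 125 and 315 with Ccnd1+/+ placebo array 2 or 3 omitted, 109 and 49 with Ccnd1+/+ estradiol array 2 or 3, and 58, 32 and 0 with Ccnd1-/- estradiol array 1, 2 or 3 (1779 genes at an unadjusted limma p under 0.05 in the last). On placebo it was 2 with Ccnd1+/+ placebo array 3 omitted. For the interaction it was 17 with that array omitted, 18 with Ccnd1+/+ estradiol array 1, 1 with Ccnd1+/+ estradiol array 2 or 3, 5 with Ccnd1-/- estradiol array 1, and 0 with any of Ccnd1+/+ placebo arrays 1 and 2, the 3 Ccnd1-/- placebo arrays and Ccnd1-/- estradiol arrays 2 and 3 (870 to 1300 genes at an unadjusted limma p under 0.05).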

How the data were processed

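The deposited log2 intensities of 12 Affymetrix arrays were used as the authors made them. The submitters' processing notes name RMA, which corrects background, normalises by quantiles and summarises probe sets, and limma 2.9.16, and the array medians of 5.7 to 5.8 fit a log2 scale. Array numbers limit precision, and arrays have no sequencing depth. Of 45101 probe sets, 34945 were linked to 1 gene, 932 to several, 9160 to none and 64 were controls, and 18193 genes entered, each through the 1 of its probe sets that was brightest on average. No filter on dim genes was applied. Across genes, correlations between pairs of arrays ran from 0.937 to 0.993.

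The class difference came from limma 3.58.1 (R 4.3.3; lmFit and eBayes; 7 residual and 2.15 prior degrees of freedom) with the 4 groups as covariates. The study's comparisons came from the 4 group means (8 residual degrees of freedom), two-sided, with Benjamini-Hochberg adjustment over all genes and a threshold of 0.05. The script was tested on simulated data. The classes, the 28 gene lists (442 of 476 members measured) and the tests were chosen with earlier results of these data known. A gene may be on more than 1 list. Named genes are Acta1, Myh4 and Des, the 12 largest called differences in each direction with the same sign in the 3 groups, up to 6 called members of each list or the 3 with the smallest p, the 3 muscle genes with the smallest p in each of the study's comparisons, and the 5 genes that follow Acta1 best. Others were named after their values were seen, to show a list's spread. The labels do not say whether replicate numbers pair samples, and the main fits did not pair them. Same-numbered arrays deviated from their group means with correlations from -0.741 to 0.66, and 7 of 18 pairs were over 0.1. These correlations cannot decide the question, since muscle and lymphocyte content also varied within the groups. The alternatives were the mean of all probe sets, leaving out the dimmest 40% of genes, median-centred arrays, a trend with robust priors, array weights, the replicate block, leaving out each array, other Acta1 thresholds, continuous muscle levels and covariates for other cells. Figures were drawn with matplotlib in Python.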

Additional observations from a re-analysis of the deposited data

Results flagged for a closer look

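Several gene list scores (means of centred log2 values) differed between the classes in one direction in Ccnd1+/+ placebo glands and in the other in the Ccnd1-/- groups. The difference between the genotypes was not tested. Muscle-rich minus muscle-poor, the T cell score was 3.64 in Ccnd1+/+ placebo and -3.16 on average over both Ccnd1-/- groups, the B cell score 4.53 and -4.11, and their mean, the lymphocyte score, 4.08 and -3.64. The cell cycle score was 1.6 and -1.4. The other scores had the opposite pattern: smooth muscle and myoepithelium at -0.48 and 0.38, white adipocyte at -0.67 and 0.23, endothelium and pericytes at -0.84 and 0.31, and fibroblast matrix at -0.88 and 0.56. So did metabolic scores, with oxidative phosphorylation at -0.3 and 0.39, the citric acid cycle at -0.31 and 0.45 and fatty acid oxidation at -0.57 and 0.63, and the estrogen target score at -0.51 and 0.09. All the Ccnd1+/+ values rest on the single muscle-poor array of that group, number 3. Each Ccnd1-/- group likewise held a single muscle-rich array, number 2 on placebo and number 1 on estradiol.

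Among 156 sets of values, those of the 78 named genes in the 5 muscle-poor or the 7 muscle-rich arrays, 7 held an array far from the rest of its class by Dixon's criterion. Chance gives about 1 in 20, so the count of 7 is no higher than chance gives. In Ccnd1+/+ placebo array 3, against the other muscle-poor arrays, the Schwann cell factor Sox10 was high at 7.94, while the B cell coactivator Pou2af1 was low at 3.25 and the macrophage receptor Msr1 low at 5.82. Also among the muscle-poor arrays, Asb5 was high in Ccnd1-/- estradiol array 3 at 3.99, still under the lower quartile of that array (4.27). The collagen Col12a1 was low in Ccnd1-/- placebo array 3 at 5.29. Among the muscle-rich arrays the intermediate filament gene Synm was high in Ccnd1+/+ placebo array 2 at 8.86 and the atrial peptide gene Nppa high in Ccnd1-/- placebo array 2 at 4.45.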

How the results depend on the processing

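The 19 genes called in the class comparison had a positive difference under every alternative run. The count was between 15 and 27 with the mean of all probe sets, without the dimmest 40% of genes, with median-centred arrays, with trend and robust priors, with array weights, with the Acta1 level as a covariate or with the lymphocyte score as a further covariate. It was 40 with the Myh4 level as covariate, 0 with an Acta1 threshold of 10 or of 12, 0 with the brown adipocyte score as a further covariate, 1141 in the knockout arrays only, and 0 to 1459 leaving out each array. With the replicate number as a block (replicate block) it was 0, with 495 genes at an unadjusted limma p under 0.05; at thresholds of 10 and 12 there were 3155 and 625. In that block fit the study's comparisons gave 158 for estradiol in wildtype, 10 for estradiol in knockout, 45 for genotype on estradiol and 0 for the interaction.

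The count for estradiol in wildtype (342) was 186 with median-centred arrays, 2785 with array weights, 169 with the muscle-rich term, and 100 to 1146 leaving out each array. That for estradiol in knockout (18) was 63 with array weights and 10 to 25 leaving out each array. Genotype on placebo (0) gave 2 with array weights and 0 to 2 leaving out each array. Genotype on estradiol (204) gave 119 without the dimmest 40%, 92 with median-centred arrays, 400 with array weights, 11 with the muscle-rich term, 94 with the Acta1 level and 0 to 315 leaving out each array. The interaction (2) gave 0 without the dimmest 40%, 0 with median-centred arrays, 1 with trend and robust priors, 22 with array weights, 0 with the muscle-rich term, 0 with the Acta1 level and 0 to 18 leaving out each array. The cause of these moves was not tested. Median-centring shifted the median of all genes from 0.011 to -0.115 for estradiol in wildtype and from 0.033 to 0.194 for genotype on estradiol, and the split of higher and lower calls went from 333 and 9 to 171 and 15 and from 6 and 198 to 12 and 80. Single genes were followed through the alternatives of the class comparison for 26 genes only. These were the 19 called ones and Des, Myoz2, Trim63, Casq1, Ttn, Myh1 and Myh2. Of their values, 395 stayed on the same side of the threshold, 217 lost and 37 gained a call, and none turned sign. The other named genes were not followed in this way. A fit of the muscle-poor arrays alone was not run, because no wildtype estradiol array was muscle-poor.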

Other observations

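Genes outside the muscle lists also separated the classes without overlap, 24 of them higher in every muscle-rich array and 12 lower (0.33% and 0.066% of all genes with the muscle lists included). They were named after their values were seen, and except for Apobec2 they were not called by limma. Of the 24, 18 differed by more than 1 log2 unit. Hjv, hemojuvelin, a coreceptor in iron regulation made by muscle and liver, was at 7.76, 10.75 and 5.68 in Ccnd1+/+ placebo, 7.20, 5.86 and 6.51 in Ccnd1+/+ estradiol, 4.98, 8.53 and 4.80 in Ccnd1-/- placebo and 8.62, 4.65 and 5.24 in Ccnd1-/- estradiol arrays, a difference of 3.63 ± 0.56. Rpl3l, the striated muscle form of a ribosomal protein, differed by 2.29 ± 0.46 (3.93 to 4.67 against 4.74 to 8.50), and Eef1a2, the translation elongation factor of muscle and nerve, by 2.68 ± 0.48 (7.11 to 7.49 against 7.86 to 11.62). Mylk4, a myosin light chain kinase, differed by 3.53, Cmya5, a partner of desmin, by 3.13, Mypn, the Z-disc protein myopalladin, by 2.79 and Tmem38a, a potassium channel of the sarcoplasmic reticulum, by 2.00. Mrln, the micropeptide myoregulin that inhibits the calcium pump, differed by 1.09, and Bex1 by 2.09 with its highest value, 8.41, in Ccnd1+/+ estradiol array 2, the muscle-rich array with the least Acta1.

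The 12 genes that were lower in every muscle-rich array had differences between -0.10 and -0.47 log2 units. Rsl1, a zinc finger repressor, differed by -0.47, Zfp148, another zinc finger factor, by -0.34 and Pipox, a peroxisomal oxidase, by -0.32. Among genes of the fixed lists, Lcn2, lipocalin, an iron-carrier-binding protein of epithelium, differed by -1.21 ± 0.35 and was lower in the muscle-rich arrays of each of the 3 groups (-0.95, -1.90 and -0.79). It was at 7.96, 8.21 and 9.04 in Ccnd1+/+ placebo, 10.67, 11.69 and 11.47 in Ccnd1+/+ estradiol, 7.62, 6.46 and 9.09 in Ccnd1-/- placebo and 8.84, 9.61 and 9.64 in Ccnd1-/- estradiol arrays, and its difference was not called.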
